A study of Arabis alpina with 12 samples.

Results

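Arabis alpina is a perennial close to Arabidopsis thaliana, and messenger RNA from lateral buds of its ecotype Pajares had been sequenced in 12 libraries, 3 per group. Plants had grown for 8 weeks in long days (16 h light) and had then been vernalized, that is kept cold, for 12 weeks at 4 °C. The groups were growing-zone buds (V3) and dormant-zone buds (V2) taken 5 days after return to long days (5 d), and V3 and V2 buds taken at the end of the cold (0 d). All groups share ecotype and cold treatment, no group was left unvernalized, and the labels call the libraries biological replicates without saying how many plants gave each. Described here are 32 genes annotated as pentatricopeptide repeat (PPR) or tetratricopeptide repeat (TPR)-like, of 3884 genes that the authors listed as changed in at least 1 comparison and 19722 genes in the table of counts. They were chosen by annotation text: 20 carried PPR in their own annotation, 8 were named TPR-like without PPR, and 4 matched only because the closest A. thaliana protein was so named. As 12 of the 32 carried no PPR annotation of their own, the group is called PPR and TPR-like genes below. Letters "PPR" inside other words, such as suppressor, matched 20 further genes, which were left out.

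PPR proteins are strings of short helical repeats that each help read a base of RNA, and land plants encode a large family of them in the nucleus. Most are sent to mitochondria or plastids, where they edit, cut, splice, stabilise or help translate organelle transcripts, so that loss of many of them stops embryo growth or greening. TPR proteins are built from a related helical repeat, which binds other proteins rather than RNA, and they serve as co-chaperones, import receptors and subunits of larger complexes.

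Recovered reads ran from 12252622 (V2 0 d replicate 3) to 22586938 per library. Library V3 0 d replicate 1 stood farthest from its group, with a root mean square deviation of 0.537 on the log2 scale over 9998 genes, against 0.355 to 0.482 in the other libraries. Of 18 loci fixed as markers of shoot meristem and organ boundary, the labelled tissue, 4 could be paired with a listed gene (CUC1, CUC3, RAX1 and BOP2), and all were above 0 in every library, with summed FPKM of 8.69 to 25.4. FPKM, a level scaled to transcript length and to the mapped reads of the library, is given by the authors for listed genes alone. The members were found by the annotation in the lists of changed genes, so unchanged PPR genes are not analysed here. Every member had therefore been picked on these same libraries, and how many members pass a test is not independent evidence of a response of the family.

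Levels and their spread over the groups differed among the members. Median FPKM over the 12 libraries was 6.79 for the PPR genes, 16.1 for the TPR-like genes and 11.3 for all 3877 listed genes with FPKM. The ratio of the highest to the lowest group mean of FPKM had a median of 1.44 in PPR genes and 5.11 in TPR-like genes, against 3.15 in all listed genes. Among the PPR genes this ratio had a median of 1.26 in 8 genes whose normalized counts hold zeros that FPKM contradicts, described below, and 1.83 in the other 12. The most abundant member was HLB1, a TPR protein of the trans-Golgi network that links it to actin, at 77.7 ± 2.58 FPKM in V3 and 65.9 ± 2.08 in V2 at 5 d (SD, n = 3 each). AT3G51280, a TPR-like gene, and AT4G02100, a DnaJ heat shock protein with TPR repeats, followed with means of 31.7 and 26.6 FPKM over all libraries. AT3G20730, AT3G21470 and MEF35, all PPR genes, were lowest at 1.74, 3.69 and 3.34. MEF35 is a mitochondrial RNA editing factor in A. thaliana. These ranks come from FPKM, which is per length, and AT3G21470 and MEF35 differed by less than the spread between libraries.

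**Figure D1:**
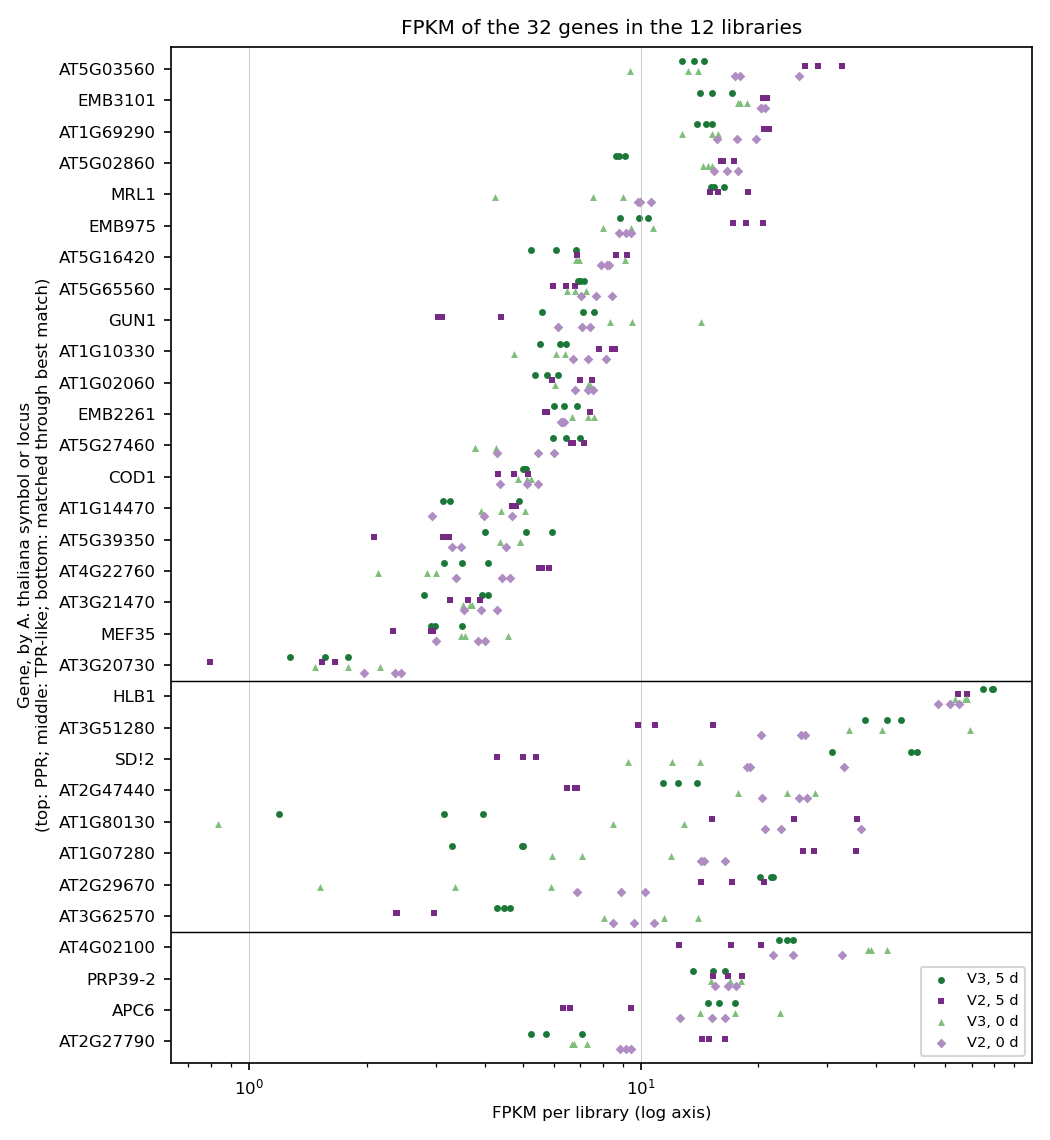
FPKM (log axis) of the 32 genes in each of the 12 libraries, with genes in rows and points coloured by zone and time; PPR genes are above the upper line, TPR-like genes between the lines, genes matched through the closest protein below. PPR genes have means of 1.74 (AT3G20730) to 18.8 FPKM (AT5G03560), and several TPR-like genes spread over a wide range.

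For many PPR genes the 2 deposited readouts of one library did not match. In 10 of the 32 genes, 8 of them PPR, some libraries held a normalized count of 0 while FPKM of that library was at its usual level. Of 384 counts of the 32 genes, 61 were such contradicted zeros, 53 of them in PPR genes. They are treated below as missing. The rule behind them takes any 0 whose FPKM was at least 1 or predicted at least 20 counts. It marked 40.0% of PPR genes and 29.7% of all listed genes, and no test of that difference was made. Among all listed genes it can include genes whose FPKM itself changed.

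AT5G16420, a PPR gene, shows the pattern. Its normalized counts were 422, 435 and 423 in V3 and 0 in all 3 V2 libraries at 0 d, where its FPKM was 6.97, 9.10 and 6.82 in V3 and 7.93, 8.28 and 8.21 in V2. The counts do not overlap and the FPKM values do. For EMB3101, a PPR gene named for its embryo-defective mutant, V2 libraries at 0 d held counts of 0 beside FPKM of 20.8, 20.3 and 20.4, and V3 libraries at 0 d held counts of 636, 622 and 1093 beside FPKM of 18.0, 17.7 and 18.7. COD1, needed in A. thaliana to edit mitochondrial transcripts of respiratory subunits, had counts of 0 in all 3 V3 libraries at 5 d, against 239, 0 and 0 in V2. Its FPKM was 5.07, 5.09 and 5.02 in V3 and 5.17, 4.31 and 4.75 in V2, and the groups overlap. EMB2261, another embryo-defective PPR gene, was likewise at 0 in every V3 library at 5 d, with FPKM of 6.02, 6.38 and 6.87 there and 5.70, 5.78 and 7.42 in V2. HLB1 held 0 in all 3 V3 libraries at 0 d at FPKM of 68.3, 67.5 and 63.5, and counts of 0, 2489 and 2387 in V2 at 0 d. PRP39-2, a homologue of a U1 spliceosome protein, was at 0 in all 3 V2 libraries at 0 d, where FPKM was 15.5, 17.5 and 16.7. AT1G02060, AT1G14470, AT1G69290 and AT5G65560, PPR genes, also had such zeros, 8, 5, 9 and 10 of 12 libraries in that order.

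**Figure D2:**
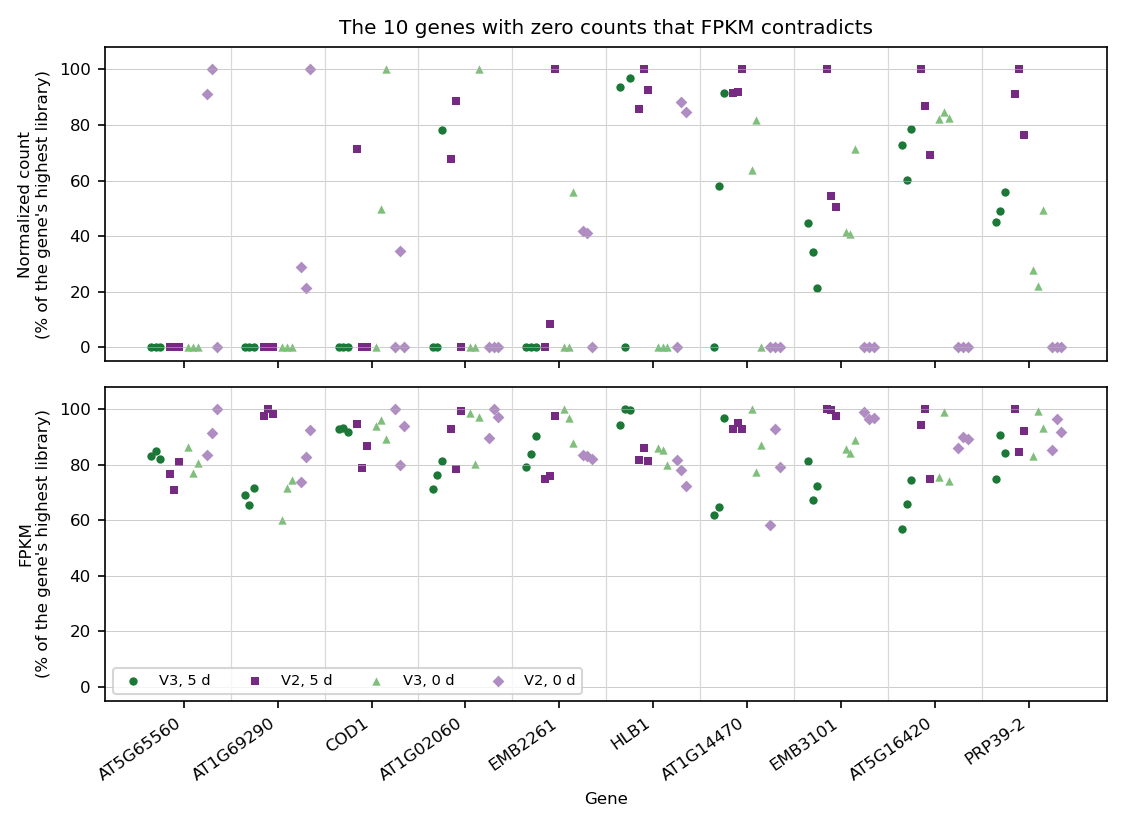
Normalized counts (upper panel) and FPKM (lower panel) of the 10 genes with contradicted zeros, each as a percentage of the gene's highest library; points are libraries, coloured by zone and time. Counts fall to 0 in whole groups, while in these genes FPKM never approaches 0 and EMB3101, for example, stays between 14.2 and 21.1 FPKM.

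These zeros carry the largest fold changes listed for the family. The 32 genes appear 51 times in the 4 lists of changed genes, and 19 of these listings involved at least 1 contradicted zero, 37.3% against 29.7% of the 6625 listings of all genes with FPKM. Among PPR genes it was 15 of 29 listings. In the authors' deposited table the log2 fold change of AT1G02060 was 24.18 for V3 over V2 at 0 d, where FPKM gave -0.05. For EMB2261 the authors' deposited table has -24.05 for V3 over V2 at 5 d, where FPKM gave 0.03. Of the 19 listings with contradicted zeros, FPKM passed the test in the listed direction in 1 (HLB1, 5 d over 0 d in V3), and in none of the 15 PPR listings. Of the 32 listings without them FPKM passed in 28, 10 of 14 for PPR genes. For all listed genes the shares were 33.3% with and 92.2% without. FPKM itself marked these zeros, so the gap between listings with and without them follows in part from that definition. It is not independent evidence. Here FPKM was tested as log2(FPKM + 1) with limma over the 3877 genes, and a call means a Benjamini-Hochberg adjusted p under 0.05.

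Some counts above 0 also parted from FPKM. AT3G20730 had normalized counts of 10.7, 12.7 and 30.9 in V3 and 1237, 34.7 and 62.0 in V2 at 5 d, with FPKM of 1.56, 1.28 and 1.79 in V3 and 0.794, 1.66 and 1.54 in V2. 1 V2 library thus held the highest count and the lowest FPKM of the 6. In MEF35 the V2 libraries at 0 d held 823, 173 and 139, with FPKM of 4.00, 3.84 and 3.00, so that again 1 library stood apart in counts alone. AT3G21470 held 552, 597 and 143 in V2 at 0 d, with FPKM of 3.91, 3.53 and 4.31, and 2 libraries stood apart. Counts per FPKM varied over 2-fold between the libraries of 9 of 20 PPR genes and 11 of all 32, 34.4% against 33.6% of all listed genes. What made counts and FPKM part was not tested.

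**Figure D3:**
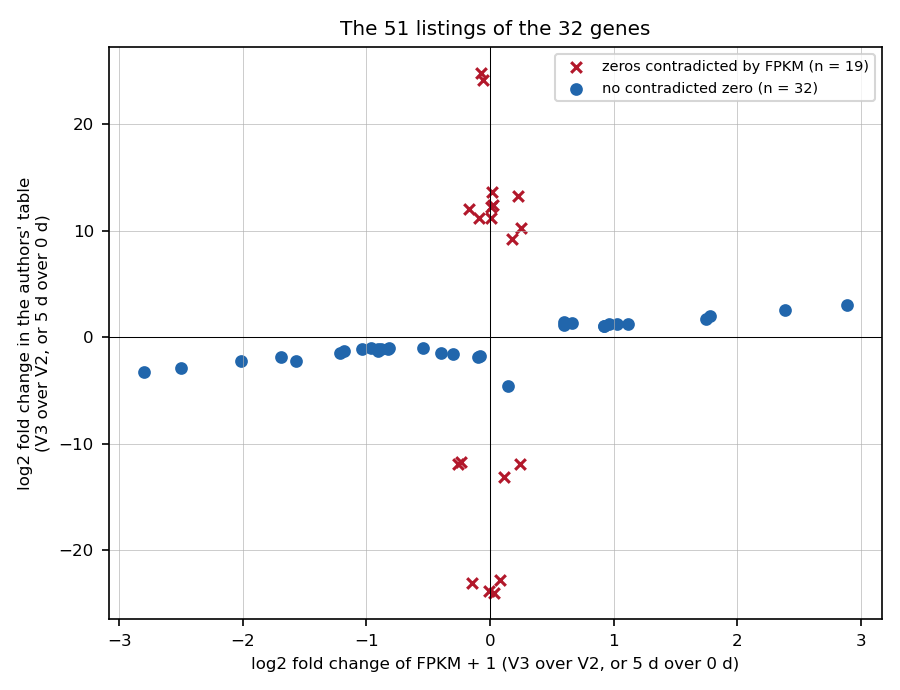
Log2 fold change in the authors' deposited table (vertical axis) against that of FPKM + 1 (horizontal axis) for the 51 listings of the 32 genes, with crosses for the 19 that involve contradicted zeros. The crosses lie far up or down near 0 on the FPKM axis, and most circles lie near a common line.

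Buds of the zones were first set against each other at 5 d, when the growing zone and the dormant zone had been in long days. V3 buds held less transcript of several PPR genes and more of GUN1 and AT5G39350, and the TPR-like genes moved furthest in each direction. Counts were tested as log2(normalized count + 1) with limma over all genes, in 1 fit of all 12 libraries. Of the 27 members that could be tested 7 were higher in V3 (16.6% of all 17018 genes tested and 26.8% of the listed genes among them) and 9 lower (20.3% of all and 33.5% of listed genes). The 16 of 27 called (59.3%) stand beside 36.9% of all and 60.2% of listed genes, and so lie near the share of listed genes. Of the 20 PPR genes 15 were tested, with 2 higher and 5 lower. That is 46.7% called, between the 36.9% of all and the 60.2% of listed genes. Their median log2 fold change was -0.37, against -0.05 over all genes tested and -0.20 over listed genes. FPKM called 9 members higher and 11 lower of 32, where 32.6% of listed genes were higher and 35.3% lower, 67.9% in all. Of the 16 count calls it shared 15, with the same direction. In bulk buds, fewer cells of a type and less RNA per cell cannot be told apart.

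Among PPR genes higher in V3 was GUN1, a plastid protein through which the state of the plastid alters nuclear gene expression in A. thaliana. Its normalized counts were 333, 341 and 403 in V3 and 167, 158 and 221 in V2 at 5 d. Every V3 library lay above every V2 library, with a log2 fold change of 0.98 ± 0.24, limma adjusted p = 0.00876. AT5G39350, annotated to the mitochondrion, was at 188, 180.5 and 269 in V3 and 52.4, 109 and 98.8 in V2 (log2 fold change 1.33 ± 0.28, limma adjusted p = 0.00509; FPKM 0.66), again with no overlap.

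Lower in V3 was EMB975, an embryo-defective PPR gene annotated to the chloroplast. Its counts were 349.8, 388 and 398 in V3 and 831, 934 and 730.1 in V2, which do not overlap (log2 fold change -1.13 ± 0.15, limma adjusted p = 0.000390). AT5G02860 had 487, 507 and 513 in V3 and 972, 1163 and 1039 in V2. Its 3 V3 libraries at 5 d lie close together and below every other library of the series, and the log2 fold change was -1.07 ± 0.11, limma adjusted p = 0.000135. AT5G03560 had 161, 184 and 183 in V3 and 387, 422 and 329.6 in V2 (log2 fold change -1.10 ± 0.21, limma adjusted p = 0.00273). AT1G10330 was lower by both measures, at log2 fold changes of -1.48 in counts and -0.39 in FPKM. So was AT4G22760, at -1.05 in counts and -0.55 in FPKM. By FPKM alone EMB3101 (-0.41), AT1G69290 (-0.49) and AT5G16420 (-0.39) were also lower, the first of them with 17.2, 14.2 and 15.2 FPKM in V3 and 21.1, 21.0 and 20.5 in V2. By FPKM alone HLB1 (0.23) and AT4G02100 (0.50) were higher in V3. MRL1, which in A. thaliana keeps the plastid rbcL transcript stable, was not called, with a log2 fold change of -0.18 ± 0.23, limma adjusted p = 0.566.

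The TPR-like genes gave 4 higher and 2 lower of 8 tested. SD!2 (sulfur deficiency induced 2, spelled as in the files), whose A. thaliana protein holds back glucosinolate synthesis when sulfur is short, was at 918, 552 and 992 in V3 and 88.8, 128 and 88.9 in V2 at 5 d. The lowest V3 library lay above the highest V2 library, and the log2 fold change was 2.97 ± 0.31, limma adjusted p = 0.000118. AT3G51280 was at 1391, 1068 and 1276 in V3 and 369, 322 and 485 in V2 (log2 fold change 1.68 ± 0.25, limma adjusted p = 0.000742). The DnaJ-domain genes AT2G47440 and AT3G62570, annotated in protein folding and as each other's closest protein, were higher at log2 fold changes of 0.91 and 2.51. For AT3G62570 counts and FPKM differed in size, since FPKM gave 0.62, and its call was lost when V2 replicate 1, V2 replicate 2 or any V3 library at 5 d was left out (log2 fold changes 1.93 to 2.57, limma adjusted p 0.0518 to 0.0871).

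AT1G07280, a chloroplast-annotated TPR-like gene, was lower in V3, at 322, 321 and 186 in V3 and 2021, 2315 and 1666 in V2. The groups are far apart, with a log2 fold change of -2.88 ± 0.30, limma adjusted p = 0.000101. AT1G80130, annotated in the response to oxidative stress, was at 84.8, 73.9 and 29.0 in V3 and 584, 883 and 367 in V2 (log2 fold change -3.32 ± 0.83, limma adjusted p = 0.0111), with wide spread in both zones. AT1G07280 and AT2G29670 are each annotated as the other's closest A. thaliana protein. Whether the authors' counting split reads between them was not tested, nor was it for AT2G47440 and AT3G62570. AT2G29670 was not called, at 0.22.

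Of the 4 genes matched through their closest protein, APC6, a TPR subunit of the anaphase-promoting complex that drives exit from mitosis, had 519, 541 and 618 in V3 and 187, 167 and 367 in V2 (log2 fold change 1.30 ± 0.29, limma adjusted p = 0.00670). AT2G27790, an RNA-binding protein with an RNA recognition motif, had 138, 175 and 148 in V3 and 466, 468 and 389 in V2, and its log2 fold change of -1.52 ± 0.14, limma adjusted p = 5.89e-05 had the smallest adjusted p of all members. PRP39-2 was lower by counts (-0.83 ± 0.27, limma adjusted p = 0.0416) and not by FPKM (-0.14, adjusted p = 0.304 by limma). Its call was lost without any 1 of the 6 libraries at 5 d (log2 fold changes -0.94 to -0.74, limma adjusted p 0.0546 to 0.118).

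**Figure D4:**
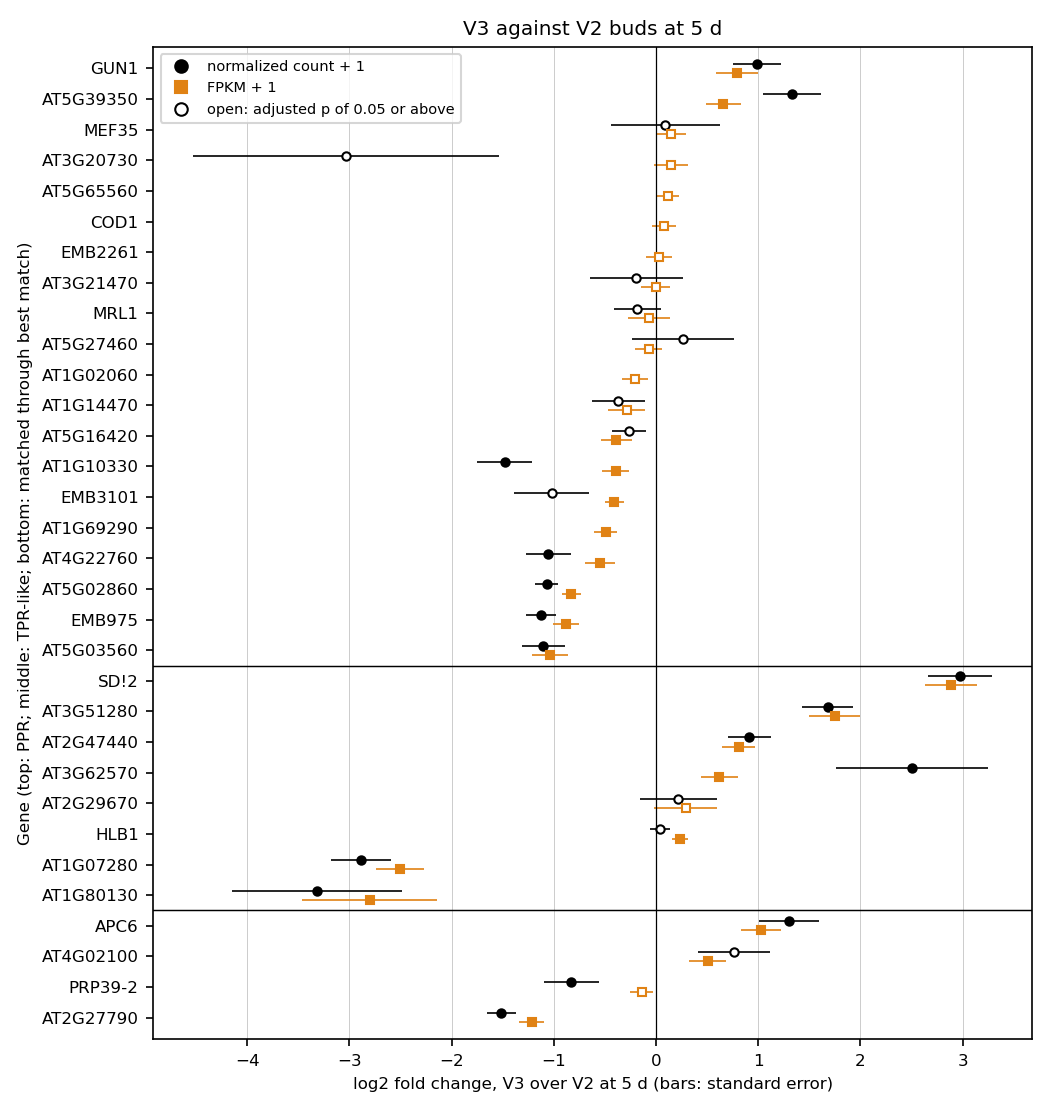
Log2 fold change of V3 over V2 at 5 d for the 32 genes (rows), from normalized counts (black circles) and from FPKM (orange squares), with standard errors; open symbols did not pass an adjusted p of 0.05, and a gene without a circle could not be tested by counts. SD!2 lies farthest right at 2.97 and AT1G80130 farthest left among called genes at -3.32.

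Genes fixed as markers of other cell types and states also differed between the zones at 5 d. Of 10 S phase loci 7 could be paired, and 7 of 7 were higher in V3, with summed FPKM of 743 to 842 in V3 and 256 to 404 in V2. The 2 photosynthetic genes paired of 12, LHCB6 and PSBP1, summed to 997 to 1115 in V3 and 546 to 629 in V2. The 3 vascular genes paired of 13, XCP1, XCP2 and APL, summed to 21.8 to 23.0 in V3 and 5.60 to 11.9 in V2. That sum follows XCP1 and XCP2, while APL had a mean of 1.77 FPKM in V3 and 2.89 in V2 (log2 fold change of FPKM + 1 of -0.48, limma adjusted p = 0.0944). The 4 meristem and boundary genes summed to 8.69 to 11.2 in V3 and 15.4 to 18.4 in V2, and 3 of 4 were called lower in V3. No listed marker of these was at 0 at 5 d. Of listed genes tested by counts at 5 d, 26.8% were higher in V3 and 33.5% lower. The markers were paired through listed genes alone, so they were picked on these libraries. Their calls, here and in the other comparisons below, do not show that a cell type moved. The part of the markers in the differences of the PPR and TPR-like genes was not tested.

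At the end of the cold no member passed the count test between the zones, while FPKM called 9, among them 2 PPR genes. These numbers are not like for like. P-values of FPKM were adjusted over the 3877 listed genes alone, which were picked on these libraries, and those of counts over 16122 genes. At an unadjusted limma p under 0.05 stood 14 members by FPKM and also 14 by counts. Of 22 members tested, counts called 0 (14 at an unadjusted p under 0.05, lowest limma adjusted p 0.0567), beside 4.4% of all 16122 genes tested (1.12% higher and 3.28% lower) and 13.7% of listed genes (3.29% higher and 10.4% lower). edgeR called 3 and DESeq2 16, both with the zeros as deposited. Leaving out V3 replicate 2 at 0 d gave 6 calls, and leaving out V2 replicate 2 or 3 at 0 d or V2 replicate 3 at 5 d gave 1 each. FPKM called 2 higher and 7 lower in V3 of 32, where 10.7% of listed genes were higher and 22.1% lower, 32.8% in all. That number fell to 1 without V2 replicate 1 or 3 or V3 replicate 1 at 0 d, and to 5 without V3 replicate 3. S phase genes summed to 1138, 636 and 743 FPKM in V3 and 444, 494 and 454 in V2 at 0 d, with V3 replicate 1 highest, and 7 of 7 were called higher in V3 by FPKM and 2 of 7 by counts. Of the 5 organelle ribosomal protein genes named below FPKM called 4 higher in V3 at 0 d, and counts called 1 of the 4 tested. Their part in the differences of the members was not tested.

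The 2 PPR genes that FPKM called at 0 d were AT5G03560 and AT4G22760, both lower in V3. AT5G03560 had FPKM of 9.38, 13.2 and 14.0 in V3 and 25.4, 17.4 and 17.9 in V2 (log2 fold change -0.68 ± 0.18, limma adjusted p = 0.0202). AT4G22760 had 2.13, 3.01 and 2.85 in V3 and 3.37, 4.65 and 4.42 in V2 (-0.49 ± 0.15, limma adjusted p = 0.0317). Neither pair of groups overlaps. Among the others, FPKM put SD!2 lower in V3 at 0 d (12.1, 9.26 and 14.2 in V3 and 19.0, 18.7 and 33.2 in V2, log2 fold change -0.91 ± 0.26, limma adjusted p = 0.0253), where at 5 d it was higher. AT1G07280 (-0.83), AT1G80130 (-2.11), AT2G29670 (-1.18) and AT2G27790 (-0.36) were lower in V3 by FPKM, and AT3G51280 (0.92) and AT4G02100 (0.59) were higher. In AT1G80130 library V3 replicate 1 held 0.836 FPKM, against 12.9 and 8.52 in the other V3 libraries. GUN1 did not pass either test (831, 444 and 536 in V3 and 307, 394 and 414 in V2, log2 fold change 0.66 ± 0.24, limma adjusted p = 0.121), though the groups do not overlap.

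In V2 buds, PPR genes differed in each direction between 5 d and 0 d, while most TPR-like genes called were lower at 5 d. The end of the cold, the return to long days and the time passed cannot be told apart in this comparison. Of 24 members tested 5 were higher and 7 lower at 5 d than at 0 d. Calls stood at 24.0% of all 16463 genes tested (12.7% higher and 11.4% lower) and 47.3% of listed genes (29.9% higher and 17.3% lower), so that 12 of 24 is near the share of listed genes. Among PPR genes 3 were higher and 2 lower of 13 tested. Among TPR-like genes 1 was higher and 4 lower of 8 tested (2 higher and 4 lower by FPKM), so the contrast rests on few genes. FPKM called 6 higher and 8 lower of 32, where 33.9% of listed genes were higher and 20.8% lower, 54.7% in all. Leaving out V2 replicate 1 at 5 d, V2 replicate 2 at 5 d or V2 replicate 2 at 0 d lowered the 12 count calls to 5, 7 and 6, and V2 replicate 2 at 0 d lowered the 14 FPKM calls to 9.

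EMB975 rose in V2, with 831, 934 and 730.1 at 5 d and 359.7, 373 and 314 at 0 d. All 5 d libraries lay above all 0 d libraries (log2 fold change 1.25 ± 0.15, limma adjusted p = 0.000359). MRL1 had 1186, 1334 and 1063 at 5 d and 685, 630.5 and 726 at 0 d in V2 (0.81 ± 0.23, limma adjusted p = 0.0297). That call was lost without any V2 library at 0 d and without V2 replicate 1 or 2 at 5 d (log2 fold changes 0.72 to 0.86, limma adjusted p 0.0535 to 0.0936). AT4G22760 was higher by counts (0.85 ± 0.22, limma adjusted p = 0.0216), with FPKM at 0.38 and not called, and its count call was lost without V2 replicate 1 at 0 d or V2 replicate 1 or 3 at 5 d (log2 fold changes 0.74 to 0.87, limma adjusted p 0.0569 to 0.0679).

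GUN1 fell in V2, with 167, 158 and 221 at 5 d and 307, 394 and 414 at 0 d, which do not overlap (log2 fold change -1.03 ± 0.24, limma adjusted p = 0.0121). AT3G21470 was the other PPR gene lower by counts (-1.57 ± 0.46, limma adjusted p = 0.0322), and there FPKM was flat, at 3.25, 3.63 and 3.89 at 5 d and 3.91, 3.53 and 4.31 at 0 d. Its count call was lost without V2 replicate 1 or 2 at 0 d or any V2 library at 5 d (log2 fold changes -1.64 to -1.21, limma adjusted p 0.0600 to 0.10).

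SD!2 fell furthest among the TPR-like genes whose counts and FPKM gave like sizes. It had 88.8, 128 and 88.9 at 5 d and 315, 455 and 704 at 0 d in V2 (log2 fold change -2.20 ± 0.31, limma adjusted p = 0.00113). AT2G47440 had 236, 167 and 239.8 at 5 d and 591, 931 and 761 at 0 d (-1.82 ± 0.21, limma adjusted p = 0.000278), and AT3G51280 (-1.02) and APC6 (-1.16) were also lower. No group of these 4 genes overlaps the other time. AT3G62570 was lower at -2.51 in counts, which overlap, and -1.57 in FPKM, which do not. AT1G07280 (0.99) and AT2G27790 (0.80) rose. Without single libraries the calls of AT3G51280 and APC6 (V2 replicate 2 at 0 d, V2 replicate 1 or 2 at 5 d), AT1G07280 (any V2 library at 0 d, V2 replicate 1 or 2 at 5 d) and AT3G62570 (V2 replicate 2 or 3 at 0 d, V2 replicate 1 or 2 at 5 d) were lost. The limma adjusted p then lay between 0.0511 and 0.120, and log2 fold changes between -1.06 and -0.89 for AT3G51280 and APC6, 0.88 and 1.03 for AT1G07280, and -2.39 and -1.93 for AT3G62570. By FPKM alone AT2G29670 (0.92) and AT5G03560 (0.52) were higher at 5 d and AT4G02100 (-0.64) and AT3G20730 (-0.50) lower. S phase genes summed to 256 to 404 FPKM at 5 d and 444 to 494 at 0 d in V2, and 3 of 7 were called lower by counts. Vascular genes summed to 5.60 to 11.9 at 5 d and 1.74 to 4.43 at 0 d, with 2 of 3 called higher, and meristem and boundary genes to 15.4 to 18.4 at 5 d and 19.7 to 24.3 at 0 d, with 2 of 4 called lower. Their part in these changes was not tested.

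In V3 buds the PPR genes MRL1 and AT5G27460 rose over the same days and AT5G02860 fell. Of 26 members tested 4 were higher and 2 lower at 5 d, 23.1% in all. Calls stood at 25.0% of all 16741 genes tested (13.8% higher and 11.1% lower) and 51.8% of listed genes (36.0% higher and 15.8% lower). FPKM called 5 higher and 6 lower of 32, where 37.3% of listed genes were higher and 17.8% lower, 55.1% in all. MRL1 had 1131, 969 and 1050.3 at 5 d and 271, 581 and 463 at 0 d, all 5 d libraries above all 0 d libraries (log2 fold change 1.33 ± 0.23, limma adjusted p = 0.00223). AT5G27460, a PPR gene, had 195, 190.0 and 225 at 5 d and 26.7, 118 and 88.4 at 0 d (1.61 ± 0.50, limma adjusted p = 0.0379), with V3 replicate 1 at 0 d lowest. Its FPKM of 6.44, 5.97 and 7.01 at 5 d and 3.78, 3.77 and 4.27 at 0 d gave 0.60 ± 0.13, limma adjusted p = 0.00302. Without V3 replicate 1 at 0 d the count value was 0.98 (limma adjusted p = 0.0713), and the call was also lost without V2 replicate 3 at 0 d, V2 replicate 1 at 5 d or any V3 library at 5 d (log2 fold changes 1.54 to 1.66, limma adjusted p 0.05003 to 0.0993).

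AT5G02860 fell in V3, with 487, 507 and 513 at 5 d and 837, 884 and 941 at 0 d, which do not overlap (log2 fold change -0.82 ± 0.11, limma adjusted p = 0.000666). In V2 it was at 972, 1163 and 1039 at 5 d and 883, 989.9 and 1175 at 0 d, overlapping, with 0.06 ± 0.11, limma adjusted p = 0.723. Among TPR-like genes AT2G29670 had 1517, 1592 and 1495 at 5 d and 115, 418 and 254 at 0 d in V3 (2.73 ± 0.38, limma adjusted p = 0.000627). The gap is wide, although V3 replicate 1 at 0 d was again lowest. SD!2 had 918, 552 and 992 at 5 d and 189, 186 and 234 at 0 d (1.97 ± 0.31, limma adjusted p = 0.00134), and AT2G47440 was lower (-0.81). That call was lost without V3 replicate 3 at 0 d or V3 replicate 1 or 3 at 5 d (log2 fold changes -0.78 to -0.65, limma adjusted p 0.0547 to 0.0644). FPKM alone called GUN1 (-0.56), AT1G07280 (-0.75), AT3G62570 (-1.12) and AT4G02100 (-0.73) lower and HLB1 (0.22) higher in V3 at 5 d. Vascular genes summed to 21.8 to 23.0 FPKM at 5 d and 0.638 to 1.87 at 0 d in V3, with up to 2 of the 3 at 0 in a library at 0 d, and photosynthetic genes to 997 to 1115 at 5 d and 608 to 814 at 0 d. The meristem and boundary genes, markers of the labelled tissue, summed to 8.69 to 11.2 at 5 d and 22.3 to 25.4 at 0 d in V3, and 4 of 4 were called lower by counts and by FPKM. The part of these lists in the changes was not tested.

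Whether a gene changed differently over the 5 days in the 2 zones was tested directly, as the change in V3 minus that in V2. Of 22 members tested 1 was higher and 4 lower, 22.7% in all. Calls stood at 6.99% of all 16043 genes tested (3.96% higher and 3.04% lower) and 18.2% of listed genes (10.7% higher and 7.56% lower). The difference was positive in SD!2, which rose in V3 and fell in V2 (4.18 ± 0.44, limma adjusted p = 0.000285). It was negative in EMB975 (-1.22 ± 0.21, limma adjusted p = 0.00786), which rose in V2 alone by the tests within zones, and in AT5G02860 (-0.88 ± 0.16, limma adjusted p = 0.0114), which fell in V3 alone by those tests. AT1G07280 (-1.83 ± 0.42, limma adjusted p = 0.0295) and AT2G27790 (-1.06 ± 0.20, limma adjusted p = 0.0128) completed the list, both called higher in V2 and not called in V3. For AT1G07280 the call was lost without V2 replicate 2 or 3 at 0 d, V2 replicate 1 or 2 at 5 d, or V3 replicate 3 at 5 d (differences -1.83 to -1.57, limma adjusted p 0.0539 to 0.0700). FPKM called the same 5 with the same signs and added AT2G29670 (1.47) and AT2G47440 (0.88), in all 3 higher and 4 lower of 32. Of listed genes FPKM called 21.0% higher and 10.9% lower, 31.9% in all. Without V3 replicate 1 at 0 d, 6 members were called by counts and 9 by FPKM. For GUN1 the difference was 0.32 ± 0.33, limma adjusted p = 0.606, and for MRL1 it was 0.52 ± 0.32, limma adjusted p = 0.376, so that neither was shown to change differently between zones.

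**Figure D5:**
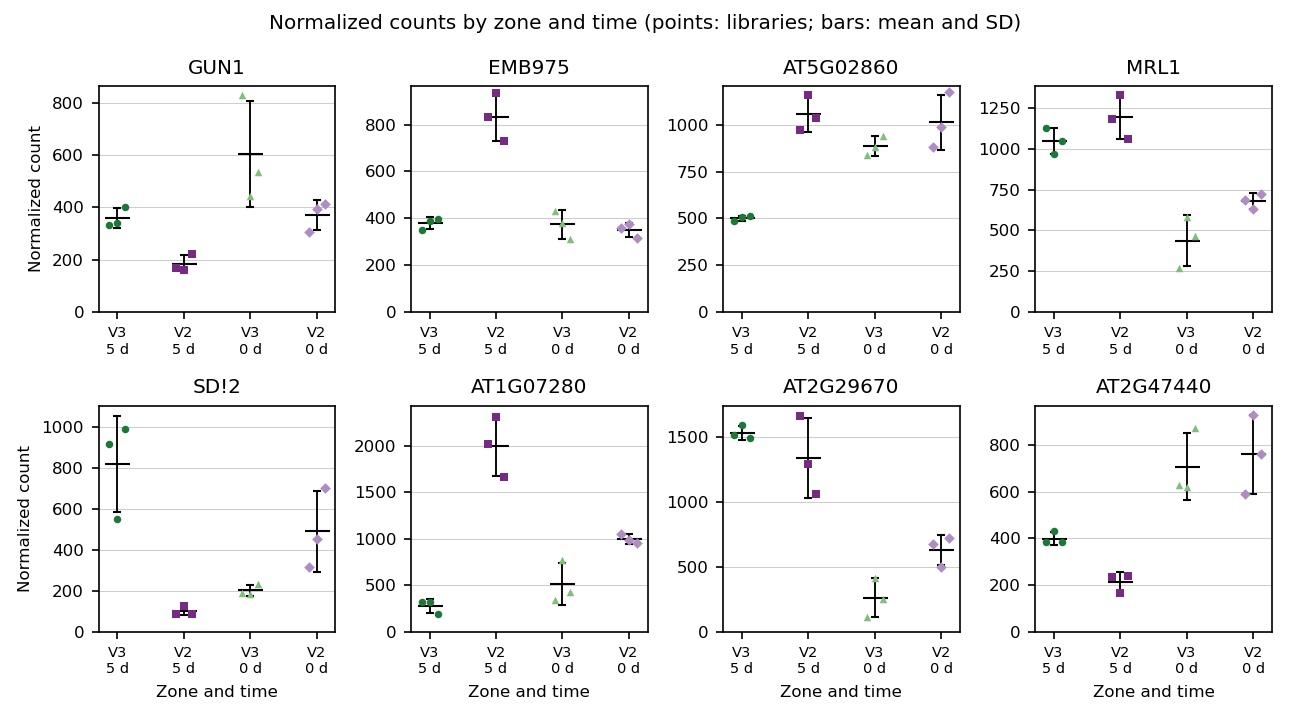
Normalized counts of 8 genes in V3 and V2 at 5 d and in V3 and V2 at 0 d; points are libraries and bars are mean and SD (n = 3). EMB975 is high in V2 at 5 d alone, AT5G02860 is low in V3 at 5 d alone, and SD!2 is highest in V3 at 5 d and lowest in V2 at 5 d.

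Genes that work beside PPR proteins in organelles were looked up from lists of A. thaliana loci, and few could be paired with a listed gene. All 5 organelle ribosomal protein genes found by annotation (PRPL35, RPL4, PRPL11, GHS1 and RPL21C) were higher in V3 at 5 d, and the 4 of them tested were lower over time in V2. Background shares at 5 d were 16.6% of all and 26.8% of listed genes higher in V3, and over time in V2 11.4% of all and 17.3% of listed genes lower. RPL4, for example, had a mean normalized count of 4107 ± 249 in V3 and 1857 ± 179.7 in V2 at 5 d (SD, n = 3 each; log2 fold change 1.15 ± 0.10, limma adjusted p = 3.98e-05). Of 12 proteins associated with the plastid RNA polymerase 3 were paired, and 3 of 3 were higher in V3 at 5 d and lower over time in V2. They were FSD3 (1.33 and -0.91), FLN1 (1.13 and -0.69) and TRXZ (1.33 and -0.96).

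The other partners went different ways. Of 9 organelle RNA polymerases and sigma factors 2 were paired, and both were lower in V3 at 5 d, RPOTP at -0.46 and SIG5 at -1.15. Over time in V2 RPOTP was lower (-0.41) and SIG5 higher (1.22). In V3 RPOTP was lower over time at -1.07 ± 0.09, limma adjusted p = 2.57e-05, and the change in V3 minus that in V2 was -0.66 ± 0.13, limma adjusted p = 0.0165. CP29A, a plastid RNA-binding protein and the 1 editing partner paired of 17, was lower at 5 d in both zones, at -1.54 in V3 and -1.25 in V2, and was not called between the zones at 5 d (-0.07 ± 0.13, limma adjusted p = 0.724). CSP41A, a plastid ribonuclease and the 1 paired of 7, was called by counts only over time in V3, where it was higher (1.34). FPKM called it higher over time in V3 (0.92) and V2 (0.32) and in V3 over V2 at 5 d (0.78). It also called the change in V3 minus that in V2 (0.60). Of the 2 mTERF genes paired of 7, SHOT1 was not called in the comparisons that counts could test. MTERF6 could not be tested by counts in any comparison, and FPKM called neither gene. None of 18 organelle splicing factors could be paired. These lists were paired through listed genes alone, so they too were chosen on these libraries.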

How the data were processed

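PolyA RNA had been sequenced as 150 bp single reads with a directional kit, per the labels' protocols. The submitters' processing notes name the tools TopHat, HISAT2, StringTie and DESeq2. Their versions, the genome build and the strand setting of counting are not given in the sources used, so antisense and overlapping genes may share counts. The deposited signal values are normalized counts, gene counts divided by 1 factor per library. Whole reads could be recovered from 100% of them within 0.05. The authors gave FPKM per library for 3877 listed genes, and deposited log2 fold changes and adjusted p-values in their 4 lists of changed genes. Fold changes in those lists run V3 over V2 and 5 d over 0 d, and 6623 of 6636 have the sign of the deposited counts with their zeros kept. That is a check of direction alone, since contradicted zeros were set missing in the tests here.

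A count of 0 was set missing if its FPKM was at least 1 or predicted at least 20 counts, or, without FPKM, if a partner library in the group reached 20 (17395 values, 5320 by FPKM and 12075 by partner libraries). Of these values 6553 lie in V2 0 d replicate 3, the library of lowest depth, and 886 to 1224 in each other library; of the 61 in members 8 lie in it. Genes needed a mean normalized count of 10 and 2 usable libraries in each group compared. log2(normalized count + 1) was fitted with limma 3.58.1 (R 4.3.3) with 1 mean per group, and log2(FPKM + 1) likewise. Both scales understate changes of low genes. P-values were adjusted over all genes tested (Benjamini-Hochberg), with calls at an adjusted p under 0.05. For FPKM these are the 3877 listed genes alone, so calls by FPKM and by counts rest on different adjustments. edgeR 4.0.16 and DESeq2 1.42.0 were run on recovered reads. In 1 gene, not a member, FPKM cells were displaced and not used.

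The members, lists and tests were chosen with earlier results of these data known. Named were members with a symbol, those with the highest and lowest FPKM, the called members with the largest changes and no overlap (mean count of at least 50), those whose change over time differed between zones with the smallest adjusted p, and called partner genes. Other members, such as those with contradicted zeros, those called by FPKM alone, AT5G03560 and AT5G16420, were named after their values had been seen. Same-numbered replicates did not deviate together (correlations -0.135 to 0.103, 1 of 18 pairs over 0.1), so numbers were not used as pairs.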

Additional observations from a re-analysis of the deposited data

Results flagged for a closer look

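The change from 0 d to 5 d differed between the zones, by the test of that difference itself, in 5 members. The change in V3 minus that in V2, on the log2 scale of normalized counts, was 4.18 for SD!2. It was -1.22 for EMB975, -1.83 for AT1G07280, -0.88 for AT5G02860 and -1.06 for AT2G27790. Leaving out 1 library at a time ended the call of AT1G07280 in 5 cases (limma adjusted p 0.0539 to 0.0700), and no cause of these differences was tested.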

How the results depend on the processing

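The counts of called members in the order V3 against V2 at 5 d, V3 against V2 at 0 d, 5 d against 0 d in V3, 5 d against 0 d in V2, and the difference between these changes were 16, 0, 6, 12 and 5. With zeros as deposited they were 14, 4, 5, 11 and 8, and with zeros left out by partner libraries alone 18, 9, 8, 21 and 12. DESeq2, on deposited zeros, gave 18, 16, 11, 23 and 14, and edgeR 14, 3, 4, 11 and 6. FPKM in place of counts gave 20, 9, 11, 14 and 7 with a pseudocount of 1, and 20, 9, 11, 13 and 7 with 0.1. PPR genes alone gave 7, 0, 3, 5 and 2, by fewer genes, and matching PPR inside other words 29, 1, 9, 18 and 7. Leaving out 1 library gave 14 to 16, 0 to 6, 4 to 7, 5 to 15 and 4 to 6 by counts, and 16 to 20, 1 to 10, 9 to 11, 9 to 16 and 6 to 9 by FPKM. The replicate block gave 15, 0, 6, 13 and 5. Replicate numbers share no stated source, and the block is given for completeness. TMM scaling, pseudocounts of 0.5 and 5, no filter, a mean count of at least 50, the compared groups alone and, as added after seeing the data, leaving out values with discordant count per FPKM kept each count within 1.5 times of its main value; the compared groups alone give no value for the difference between the changes. Single genes gave 980 values in 38 results, of which 890 kept direction and call, 90 lost the call and 0 reversed. The cause of the moves at 0 d was not tested. FPKM at pseudocount 0.1, discordant values and leaving out libraries from FPKM were chosen after seeing the data. Depth was lowest in V2 0 d replicate 3 (12252622 reads), and without that library the counts of calls were 16, 1, 5, 9 and 5.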
